A study of Mus musculus with 14 samples.

Results

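The genes described here encode proteins that store or stabilise mRNA in spermatids or act on its poly(A) tail: 10 named genes of the 21905 genes that carry a symbol in the deposited joint table of the study. The members were taken by symbol: the Y-box protein genes Ybx1, Ybx2 and Csda, the cytoplasmic poly(A)-binding protein genes Pabpc1, Pabpc2 and Pabpc4, the poly(A) polymerase gene Papolb, the gene Paip2 for an inhibitor of poly(A)-binding protein, and the translin genes Tsn and Tsnax. The rule lists them by name and uses no measured value, although the members were chosen with earlier results of these data known. RNA was sequenced in 14 libraries of adult C57BL/6 mouse testis, from animals at least 6 weeks old, made at successive steps towards a purified chromatoid body, the RNA and protein granule beside the nucleus of round spermatids. Tubule cells fixed with formaldehyde were broken up into a lysate, which was spun into a supernatant and pellet1; a second round of sonication, filtration and spinning gave pellet2, and an antibody against MVH, the germ cell helicase encoded by Ddx4, gave the MVH IP. The protocol in the labels puts pellet2 into the immunoprecipitation, whereas the sample type of the same libraries names lysate. The values used here are those of lysate, supernatant, pellet1 and pellet2 (1 library each), MVH IP (3 libraries), sorted round spermatids (2 libraries, 1 of them from RNA above 500 bp) and sorted round spermatids titled as heterozygous for MIWI, the PIWI protein of spermatids (1 library). The title is the source of the MIWI genotype, and no other allele is named for any group. The control immunoprecipitations with IgG and with an antibody against the acrosomal protein ACR were not analysed here.

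Spermatids make many of the mRNAs for the sperm head and tail days before the proteins appear, because transcription stops when protamines compact the haploid nucleus. In the meantime these mRNAs are held in ribonucleoprotein particles. Y-box proteins coat stored mRNAs and keep them from being translated, poly(A)-binding proteins cover the tail and connect it to translation initiation, and a shortened tail often marks a message that has become active in spermatids. The chromatoid body gathers RNA, the piRNA machinery and RNA decay proteins next to the nucleus of the same cells.

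Each group has 1 deposited value per gene, in FPKM (fragments per kilobase of transcript, scaled to the mapped fragments of the library), also where several libraries were pooled. No SD, n or p-value of these levels can be given, neighbouring levels in an order cannot be told apart from library noise, and the depth of the libraries is unknown. A difference is given below as the log2 ratio of (FPKM + 1), which understates the change of low genes, and counts as higher or lower from 2-fold up where the mean of the samples compared was at least 1 FPKM. Of the markers of round spermatids, 10 of 10 were above 1 FPKM in all 5 conditions of the joint table. Their summed level was 36529 FPKM in lysate and 36253 in supernatant, 21933 in pellet1 and 25543 in pellet2, and 30026 in MVH IP. The sorted round spermatid table listed 10 of 10 of these markers, 6 of 10 spermatocyte markers and none of the markers of spermatogonia, Sertoli, Leydig or blood cells. That table lists genes from 5 FPKM up, so an unlisted marker may still be present. With the same floor, the separate lysate table also listed none of the 10 spermatogonial markers. It listed 3 of 11 Sertoli, 6 of 8 Leydig and 2 of 6 blood and macrophage markers. In bulk samples, fewer cells of a type and less RNA per cell cannot be told apart.

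The 3 Y-box genes were among the most abundant members and, with Tsnax, those lower by 2-fold or more in pellet1 than in lysate, and their mRNAs are related in sequence. The stretches printed here lie in the cold-shock domain, the nucleic acid binding domain of the family. They were chosen as the gap-free window with the most bases shared by all 3 genes. They therefore show the closest likeness of the coding sequences and not a typical one. They were read from GENCODE M21 transcripts (GRCm38) and are 90 coding bases long, 5′ to 3′, with capitals at bases that differ from Ybx2. The Ybx2 stretch lies on the plus strand of exons 2, 3 and 4 at chr11:69936917-69936960, chr11:69938342-69938375 and chr11:69939238-69939249. The Csda stretch lies on the minus strand, also in exons 2, 3 and 4, at chr6:131384503-131384546, chr6:131383501-131383534 and chr6:131380954-131380965. The Ybx1 stretch lies on the minus strand of the same numbered exons at chr4:119293742-119293785, chr4:119285109-119285142 and chr4:119282859-119282870.
Ybx2: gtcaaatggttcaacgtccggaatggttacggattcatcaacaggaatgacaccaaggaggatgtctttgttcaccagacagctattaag
Csda: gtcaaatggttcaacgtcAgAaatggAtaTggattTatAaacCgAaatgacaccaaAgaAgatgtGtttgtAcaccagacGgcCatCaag
Ybx1: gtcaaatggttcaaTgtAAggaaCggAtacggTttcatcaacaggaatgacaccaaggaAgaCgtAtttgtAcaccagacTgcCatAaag
Csda differed from Ybx2 at 15 of these bases and Ybx1 differed at 13, and 70 of 90 bases were the same in all 3 genes. Over their aligned coding sequences Ybx2 and Csda were 69.9% identical, Ybx1 and Csda 72.2%, and Ybx1 and Ybx2 68.4%. The longest run shared by a pair of the 3 transcripts was 26 bases, between Ybx1 and Ybx2. Ybx1 also has close copies elsewhere: 25.1% of the 50-base words of its transcript occur in 6 pseudogenes, against 0% for Ybx2 and Csda, so the Ybx1 value could hold or lose reads of those copies.

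No link to levels in the fractions was tested for the 250 bases before the start of the Y-box genes, which are printed here as a description. They come from the RefSeq promoter table (GRCm38.p6), which matched 6 of the 10 members (Ybx1, Ybx2, Csda, Papolb, Pabpc4 and Tsn). Capitals mark the letters CCAAT on either strand, the motif after which Y-box proteins were named, which is the reverse complement of the Y-box letters ATTGG. The windows are chr11:69935649-69935898 on the plus strand for the upstream start of Ybx2, chr6:131388451-131388700 on the minus strand for Csda and chr4:119294514-119294763 on the minus strand for Ybx1.
Ybx2: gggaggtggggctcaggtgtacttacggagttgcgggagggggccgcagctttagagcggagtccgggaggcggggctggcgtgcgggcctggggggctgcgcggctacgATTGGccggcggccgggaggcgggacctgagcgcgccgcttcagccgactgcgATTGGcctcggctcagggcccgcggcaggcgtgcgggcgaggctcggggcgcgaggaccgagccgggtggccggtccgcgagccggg
Csda: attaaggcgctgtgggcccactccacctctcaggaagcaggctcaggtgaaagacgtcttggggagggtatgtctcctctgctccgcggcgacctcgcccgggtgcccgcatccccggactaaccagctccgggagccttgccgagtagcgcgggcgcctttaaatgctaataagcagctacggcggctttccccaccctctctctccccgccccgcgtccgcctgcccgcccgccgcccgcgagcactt
Ybx1: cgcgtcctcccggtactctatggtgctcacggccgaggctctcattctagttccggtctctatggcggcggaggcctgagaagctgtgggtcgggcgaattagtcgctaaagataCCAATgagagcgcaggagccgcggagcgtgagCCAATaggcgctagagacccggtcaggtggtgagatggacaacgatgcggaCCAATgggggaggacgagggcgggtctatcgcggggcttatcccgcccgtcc
The Ybx1 window holds 3 CCAAT, at bases 135 to 131, 103 to 99 and 52 to 48 before the start. The Ybx2 window holds 2 on the opposite strand, at bases 140 to 136 and 87 to 83, and the Csda window holds none. The 6 matched members have 7 windows, as Ybx2 has another start site whose window is not printed here. CCAAT on either strand occurred in 4 of these 7 windows (Ybx1, the printed window of Ybx2, Papolb and Tsn) and in 33.8% of 32851 promoter windows. The GC box letters GGGCGG occurred in 4 of 7 (Ybx1, Csda, Pabpc4 and the window of Ybx2 that is not printed) and in 32.7% of all windows. TGACG, the core of the cAMP response element, bound in spermatids by the activator CREM, occurred in 1 of 7 (Tsn) and in 17.8% of all windows, and the full site TGACGTCA in 0 of 7 and in 1.55%. TATAAA was found in 1 of 7 (Pabpc4) against 12.4%, and CACGTG in 0 of 7 against 6.02%. These matches of letters are descriptions of the windows only.

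Ybx2 encodes MSY2, the germ cell Y-box protein that coats stored mRNAs, and was the most abundant member in all 5 conditions of the joint table. Its levels were 971 FPKM in lysate and 1107 in supernatant, 394 in pellet1 and 646 in pellet2, and 613 in MVH IP. The supernatant and lysate were high and pellet1 low, and even in pellet1 the level of Ybx2 exceeded that of 99.2% of genes. The gene lies at chr11:69749401-69755101 in mm9, the build of the deposited values.

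Csda, now called Ybx3, encodes MSY4, a Y-box partner of MSY2 at testis mRNAs, and lies at chr6:131314876-131338468 (mm9). It stood at 715 FPKM in lysate and 814 in supernatant, 307 in pellet1 and 439.6 in pellet2, and 506 in MVH IP. Its order of conditions began and ended like that of Ybx2, with supernatant highest and pellet1 lowest, but MVH IP lay above pellet2. The level of Ybx2 was between 1.21 times (MVH IP) and 1.47 times (pellet2) that of Csda.

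Ybx1, at chr4:118949932-118967118 (mm9), encodes YB-1, the Y-box protein found in most tissues. Its levels were 319.6 FPKM in lysate and 351 in supernatant, 109 in pellet1 and 151 in pellet2, and 204 in MVH IP. It was the lowest of the 3 in every condition, and the level of Ybx2 was 3.04 times that of Ybx1 in lysate, 3.63 times in pellet1, 4.28 times in pellet2 and 3.01 times in MVH IP. The summed FPKM of the 3 genes was 2005 in lysate and 2272 in supernatant, 810.3 in pellet1 and 1237 in pellet2, and 1323 in MVH IP.

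Pabpc1 encodes the main cytoplasmic poly(A)-binding protein and lies at chr15:36525413-36538728 (mm9). The joint table gave it 494 FPKM in lysate and 559.7 in supernatant, 286 in pellet1 and 349 in pellet2, and 348 in MVH IP. Both pellets and the MVH IP lay below lysate and supernatant. Of its transcript's 50-base words, 20.7% occur in 3 pseudogenes.

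Pabpc2 is an intronless testis copy of the same family, at chr18:39933151-39935736 (mm9). It stood at 241 FPKM in lysate and 234 in supernatant, 123 in pellet1 and 146 in pellet2, and 132 in MVH IP. Its coding sequence was 83.2% identical to that of Pabpc1, with no shared run over 37 bases, so assignment of short reads between them is possible but not certain. The level of Pabpc1 was 2.05 times that of Pabpc2 in lysate and 2.63 times in MVH IP.

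Pabpc4, the inducible family member, had the lowest levels of the members and lies at chr4:122960154-122976076 (mm9). It had 0.623 FPKM in lysate and 0.797 in supernatant, 0.0314 in pellet1 and 1.00 in pellet2, and 3.23 in MVH IP, and no separate gene table listed it. It passed the filter of 1 FPKM only in comparisons with the MVH IP, its highest condition, and the authors' deposited table gave it no test. Its transcript shares 74.7% of its 50-base words with 12 pseudogenes, so its values are uncertain.

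Papolb encodes TPAP, the testis poly(A) polymerase that lengthens tails in the cytoplasm of spermatids. Its levels were 218 FPKM in lysate and 216 in supernatant, 122 in pellet1 and 131 in pellet2, and 137 in MVH IP, so the 2 early fractions lay above the 3 later ones. The joint table gives it the interval chr5:142960795-143027031 (mm9), the same as for Radil, and the use of strand in counting is not given in the sources of this account. Papolb and Pabpc2 had close levels: Pabpc2 was between 0.968 times (MVH IP) and 1.11 times (pellet2) the level of Papolb in the joint table.

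Paip2 encodes an inhibitor that pulls poly(A)-binding protein off the tail. Like the weakly measured Pabpc4 it was highest in MVH IP, and it departed from the other members above. It stood at 92.9 FPKM in lysate and 84.0 in supernatant, 89.1 in pellet1 and 82.2 in pellet2, and 131 in MVH IP. The first 4 values lay close together and the MVH IP was highest. Its interval, chr18:35758321-35786881 (mm9), is the one also given for Slc23a1. Set against its target, the level of Pabpc1 was 5.32 times that of Paip2 in lysate and 6.66 times in supernatant, but 3.21 times in pellet1, 4.25 times in pellet2 and 2.65 times in MVH IP.

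Tsn and Tsnax encode translin and its partner TRAX, which bind RNA together in germ cells, and both were low. Tsn (chr1:120195095-120207709, mm9) had 12.8 FPKM in lysate and 12.0 in supernatant, 8.54 in pellet1 and 8.49 in pellet2, and 17.4 in MVH IP. Tsnax had 24.2 FPKM in lysate and 21.0 in supernatant, 9.29 in pellet1 and 14.7 in pellet2, and 12.3 in MVH IP. The order of the 2 partners turned in the joint table: Tsnax was 1.89 times Tsn in lysate and 0.71 times Tsn in MVH IP. It did not turn in the separate gene tables, where Tsnax was 2.00 times Tsn in lysate and 1.16 times in MVH IP. The joint table places Tsnax on the unlocalised sequence chr8_random from 580370 to 601515.

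**Figure D1:**
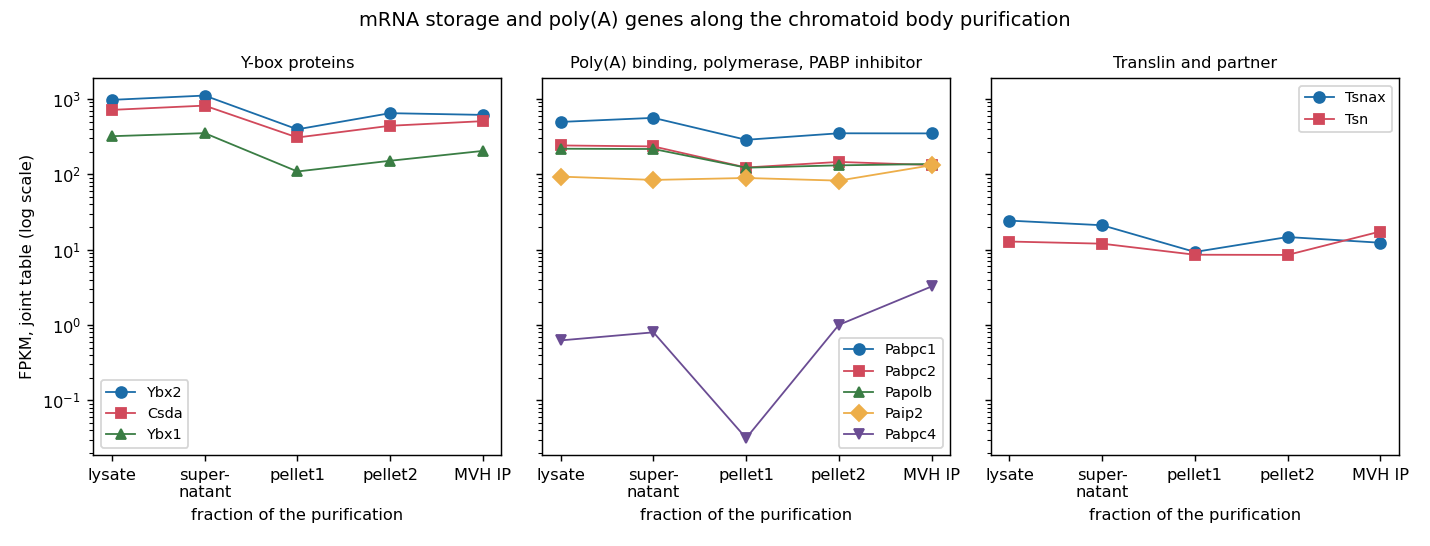
Level of each of the 10 genes (FPKM of the joint table, log axis) in lysate, supernatant, pellet1, pellet2 and MVH IP, with 1 deposited value per point, no error bars, and lines that join the values of a gene. Pellet1 is the lowest point for Ybx2, Csda, Ybx1, Pabpc1, Pabpc2, Papolb, Tsnax and Pabpc4, while Paip2, Tsn and Pabpc4 are highest in MVH IP.

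The supernatant held the members at the level of the lysate it came from. The Y-box genes and Pabpc1 were slightly above lysate, with log2 ratios of 0.19 for Ybx2, 0.19 for Csda, 0.13 for Ybx1 and 0.18 for Pabpc1. The other 5 measured members were slightly below, from -0.01 for Papolb to -0.19 for Tsnax. Called at 2-fold were 0 of 9 members higher, where 0.751% of all 12777 genes were, and 0 of 9 lower, where 1.46% were.

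Pellet1, the crude fraction that sedimented from the lysate, held less of the storage genes. The 3 Y-box genes and Tsnax were lower by 2-fold or more, with log2 ratios to lysate of -1.55 for Ybx1, -1.30 for Ybx2, -1.22 for Csda and -1.29 for Tsnax. Pabpc2 (-0.97), Papolb (-0.83), Pabpc1 (-0.79) and Tsn (-0.53) lay below lysate within 2-fold, and Paip2 was level with it (-0.06). These were 4 of 9 members lower and 0 higher, beside 9.41% lower and 16.8% higher among all 12904 genes. The median log2 ratio was -0.97 over the 9 members and 0.07 over all genes, and 2.94% of all genes had a lower ratio than Ybx1. Among 923 genes with a mean of at least 100 FPKM, 14.2% were lower by 2-fold, the median ratio was -0.08, and the 6 members at that level (Ybx1, Ybx2, Csda, Pabpc1, Pabpc2 and Papolb) all lay below it. Relative to the median of all genes Pabpc2 passed too (-1.04), making 5 of 9 beside 11.2%. The summed round spermatid markers given above were also lower in pellet1 than in lysate. So were the sums of 9 spermatocyte markers (545 against 782 FPKM), 10 Sertoli markers (33.0 against 69.6), 8 Leydig markers (151 against 330.2) and 6 blood and macrophage markers (42.8 against 71.6), whereas the spermatogonial markers summed to 23.3 against 21.5. The part of these markers in the result was not tested.

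Against the supernatant, the gap of pellet1 was wider for the Y-box genes, and 4 of 9 members were lower by 2-fold (Ybx1, Ybx2, Csda and Tsnax) beside 9.95% of 12866 genes. Ybx1 was 3.23 times, Ybx2 2.81 times and Csda 2.65 times as high in supernatant as in pellet1. Of 90 tests of a member between a pair of conditions in the authors' deposited table, 1 passed a q-value of 0.05, beside 2.71% of all tests there: Ybx1 in supernatant and pellet1, with q = 0.0471 and p = 0.00111. In the same pair of conditions 0.111% of 10804 genes were lower in pellet1 at that q-value. In the authors' deposited table the q-value of Csda for that pair was 0.126 and that of Ybx2 was 0.162, and Ybx1 between lysate and pellet1 had q = 0.0648. Another 8 of the 90 tests in the authors' deposited table had an unadjusted p below 0.05 without passing on q. They were Ybx1 in 3 further pairs, Ybx2 in 2, Csda in 2 and Pabpc2 in 1. The conditions in these tests have 1 library each, so the tests had no replicates within a condition.

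Pellet2, the filtered material sedimented after the second sonication, lay between pellet1 and lysate for most members. Against pellet1, Ybx2 was 0.71 higher on the log2 scale, Tsnax 0.61, Csda 0.52, Ybx1 0.47, Pabpc1 0.29, Pabpc2 0.24 and Papolb 0.10, whereas Tsn (-0.01) and Paip2 (-0.12) were level. None of the 9 passed 2-fold, where 5.94% of 12832 genes were higher and 6.67% lower. The 6 members with a mean of at least 100 FPKM all lay above the median of -0.10 of the 923 genes at that level. Against lysate, the 9 members had log2 ratios from -1.08 (Ybx1) to -0.17 (Paip2), and 1 of 9, Ybx1, was lower by 2-fold, beside 7.21% of 12941 genes. None was higher, beside 12.5% of these genes. Ybx2 stood at -0.59 and Csda at -0.70, so pellet2 did not reach the lysate level for these genes.

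**Figure D2:**
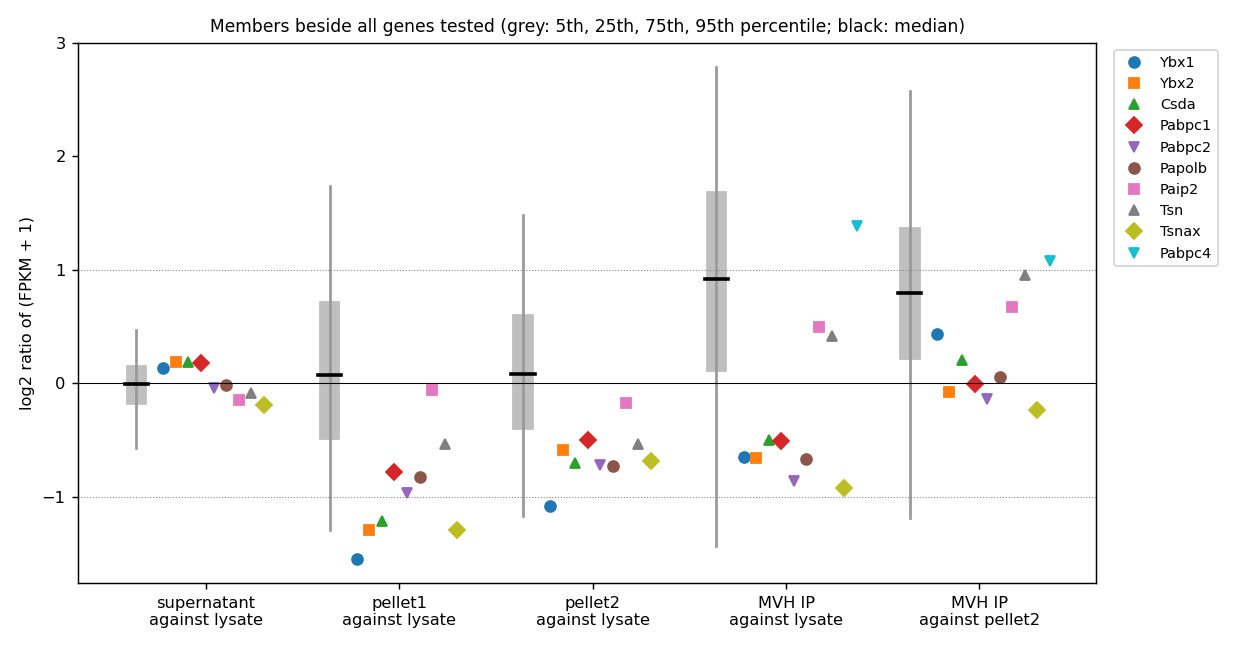
Log2 ratio of (FPKM + 1) of each member (coloured points) in 5 comparisons of the joint table, beside all genes tested (grey bar, 25th to 75th percentile; grey line, 5th to 95th; black line, median). In pellet1 the 3 Y-box genes and Tsnax lie below -1, and in the MVH IP against lysate 9 of 10 members lie below the median of 0.92.

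In the MVH IP of the joint table, 7 of the 10 members lay below lysate, where the median of all genes lay above it. Tsnax had a log2 ratio to lysate of -0.92, Pabpc2 -0.86, Papolb -0.67, Ybx2 -0.66, Ybx1 -0.65, Pabpc1 -0.50 and Csda -0.50. The inhibitor gene Paip2 (0.50) and the translin gene Tsn (0.41) lay above lysate within 2-fold. Pabpc4 was the 1 of 10 members higher by 2-fold (1.38), at levels of a few FPKM or less, beside 47.3% of all 13855 genes. It passed the filter of 1 FPKM through its MVH IP value, so no result is drawn from its call. None of the 10 members was lower, beside 7.53%. The median over all genes was 0.92, and the ratios were therefore also read relative to it. Centred in this way, 7 of 10 members were lower by 2-fold, from -1.41 for Csda to -1.84 for Tsnax, beside 20.6% of genes, and 0 were higher, beside 18.7%. Genes with a mean of at least 100 FPKM numbered 1256 and had a median of 0.67, and the 7 members at that level (the 6 named above and Paip2) were all below it. The 10 Sertoli markers measured summed to 315 FPKM in MVH IP and 69.6 in lysate, with Rhox8, Amh, Inha and Fshr at 0 in the MVH IP, and the 10 spermatogonial markers summed to 88.5 and 21.5; their part in the result was not tested.

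Against pellet2, the material named in the protocol as its input, the MVH IP held most members at an equal level. Log2 ratios were -0.00 for Pabpc1, -0.08 for Ybx2, 0.06 for Papolb, -0.14 for Pabpc2, 0.20 for Csda and -0.23 for Tsnax. Ybx1 was somewhat higher (0.43), followed by Paip2 (0.67) and Tsn (0.95). Pabpc4, again from a very low level, was the 1 of 10 members higher by 2-fold (1.08), beside 39.9% of 13808 genes, and 0 were lower, beside 5.78%. The median of all genes was 0.79; relative to it, Tsnax was the 1 member lower by 2-fold (-1.03), beside 13.7% of genes, and 0 were higher, beside 14.2%.

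The MVH IP was deposited in 3 forms, and before centring the direction of Pabpc1, Ybx2, Csda and Pabpc2 depended on which was read. In the separate gene tables Pabpc1 had 751 FPKM in MVH IP and 248 in lysate, a log2 ratio of 1.59, where the joint table gave -0.50. Paip2 had 279 and 36.0 FPKM there (2.92), Ybx2 686 and 396 (0.79), Csda 424 and 283 (0.58), Tsn 8.39 and 5.03 (0.64), and Pabpc2 97.7 and 89.9 (0.12). Ybx1, at 179 and 185 FPKM (-0.05), and Tsnax, at 9.75 and 10.1 (-0.04), were level. Higher by 2-fold were 2 of these 8 members, Pabpc1 and Paip2, beside 78.9% of 3806 genes, and 0 were lower, beside 0.473%. The median of all genes was 2.03. Relative to that median, 6 of 8 (Csda, Pabpc2, Tsn, Tsnax, Ybx1 and Ybx2) were lower by 2-fold, beside 21.8% of genes, and 0 were higher, beside 23.4%. Centred in the joint table and in the separate tables, Ybx2 stood at -1.58 and -1.24, Csda at -1.41 and -1.45, and Pabpc2 at -1.78 and -1.91. Pabpc1 stood at -1.42 and -0.44. A further table, with a value per RefSeq transcript, gave the MVH IP 165 FPKM for Ybx2, 145 for Csda, 96.6 for Pabpc1, 42.5 for Pabpc2, 58.2 for Papolb, 58.2 for Paip2 and 17.6 for Ybx1. For each gene the highest transcript value was taken. Its ratio to the separate lysate value therefore sets 1 transcript against a gene value, and the authors scaled the 2 apart. By these ratios 4 of 7 members were lower by 2-fold, beside 7.35% of 6160 genes, and 0 were higher, beside 44.8%. The lower ones were Ybx1 (-3.32), Pabpc1 (-1.35), Ybx2 (-1.26) and Pabpc2 (-1.06). For Ybx1 the transcript value was 0.0863 times the joint value, where the median over genes was 0.44 times. Papolb was not listed for MVH IP in the separate gene table, in common with 493 of 1638 genes (30.1%) that had at least 100 FPKM in the joint MVH IP column.

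**Figure D3:**
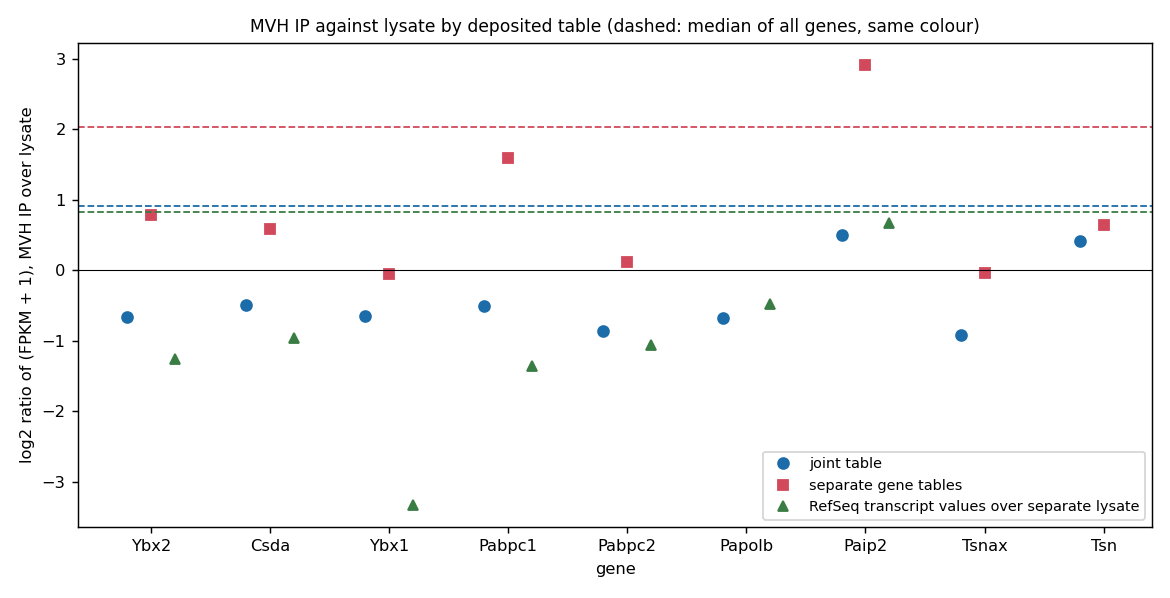
Log2 ratio of (FPKM + 1) of MVH IP over lysate for 9 members (all but Pabpc4) by deposited table (symbols), with the median of all genes of each table as a dashed line in the same colour. Pabpc1 changes side of 0 between tables (-0.50, 1.59 and -1.35), as do Ybx2 (-0.66, 0.79 and -1.26), Csda and Pabpc2, and Paip2 lies above the median line in the separate gene tables only.

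Sorted round spermatids held Pabpc1 as their leading member. Pabpc1 had 1091 FPKM in round spermatids and 248 in the separate lysate table, a log2 ratio of 2.13. Csda had 582 and 283 FPKM (1.04), Paip2 76.2 and 36.0 (1.06), Ybx1 327 and 185 (0.81), Ybx2 617 and 396 (0.64) and Pabpc2 132 and 89.9 (0.55). Papolb, with 68.6 and 81.7 FPKM (-0.25), was the 1 of 7 listed members below lysate. Higher by 2-fold were 3 of 7, Pabpc1, Csda and Paip2, beside 22.6% of 4105 genes, and 0 were lower, beside 3.61%. The median of all genes was 0.31, and relative to it Pabpc1 was the 1 member higher, beside 15.2% of genes, and 0 were lower, beside 8.04%. When the lysate level was taken from the joint table instead, Pabpc2 (-0.86), Ybx2 (-0.65), Csda (-0.29) and Paip2 (-0.28) lay below lysate and Pabpc1 stayed above it. Papolb was then the 1 of 7 lower by 2-fold (-1.65), beside 36.5% of 4900 genes, and Pabpc1 the 1 higher, beside 8.43%. These 2 sources were scaled apart: over all genes the separate lysate value was 0.43 times the joint value at the median. Relative to the median of all genes, the 7 members had a median of 0.41, Pabpc1 stood at 1.84 and Papolb was no longer lower by 2-fold. In round spermatids the level of Pabpc1 was 8.25 times that of Pabpc2 and 14.3 times that of Paip2, where the separate lysate table gave 2.76 and 6.88 times. The separate MVH IP table gave 7.68 and 2.69 times, and Pabpc1 (751 FPKM) was the highest listed member there as well. Ybx2 and Csda were nearly level in round spermatids, at a ratio of 1.06. Pabpc4, Tsn and Tsnax were not listed for round spermatids; the separate tables list genes from 5 FPKM upward.

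Set against round spermatids, the MVH IP of the separate tables was higher for Paip2, at 279 against 76.2 FPKM (log2 ratio 1.86). Ybx2 was level (686 and 617 FPKM, 0.15), and the other 4 listed members lay below round spermatids: Pabpc2 at -0.43, Csda at -0.46, Pabpc1 at -0.54 and Ybx1 at -0.86. Paip2 was thus the 1 of 6 members higher by 2-fold, beside 75.4% of 3855 genes, and 0 were lower, beside 0.545%. The median of all genes was 1.85; relative to it Paip2 stood at 0.00 and the other 5 were lower by 2-fold, from -1.70 (Ybx2) to -2.72 (Ybx1), beside 21.5% of genes, while 0 were higher, beside 20.3%. With the MVH IP values of the joint table, Paip2 stood at 0.78 and Pabpc1 at -1.64, the latter then the 1 of 7 members lower by 2-fold, beside 5.86% of 4900 genes, and 0 were higher, beside 58.8%. Ybx2 stood at -0.01 and Pabpc2 at 0.00 with these values.

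The round spermatids titled heterozygous for MIWI differed from the other round spermatids in Papolb. Papolb had 202 FPKM in the heterozygous sample and 68.6 in round spermatids, a log2 ratio of 1.55. Pabpc2 had 228 and 132 FPKM (0.79), Csda 926 and 582 (0.67), Ybx2 665 and 617 (0.11), and Paip2 53.6 and 76.2 (-0.50). Papolb was the 1 of 5 listed members higher by 2-fold, beside 12.7% of 2536 genes, and 0 were lower, beside 10.5%; relative to the median of 0.43 it remained the 1 higher, beside 3.59%, and 0 were lower, beside 18.3%. Csda was above Ybx2 in this sample, with Ybx2 at 0.72 times Csda. Pabpc1 and Ybx1 were not listed for it, in common with 31 of the 76 genes (40.8%) that had at least 300 FPKM in round spermatids. Of the 10 round spermatid markers, 7 were listed for the heterozygous sample, and of the 10 spermatocyte markers 3 were, against 10 and 6 for the other round spermatids. Genotype, library and sort cannot be told apart here, as each of the groups has 1 deposited value. The value of the other round spermatids pools 2 libraries, 1 of them from RNA above 500 bp, and the authors scaled the 2 tables apart. In the joint table Papolb also shares its interval with Radil.

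**Figure D4:**
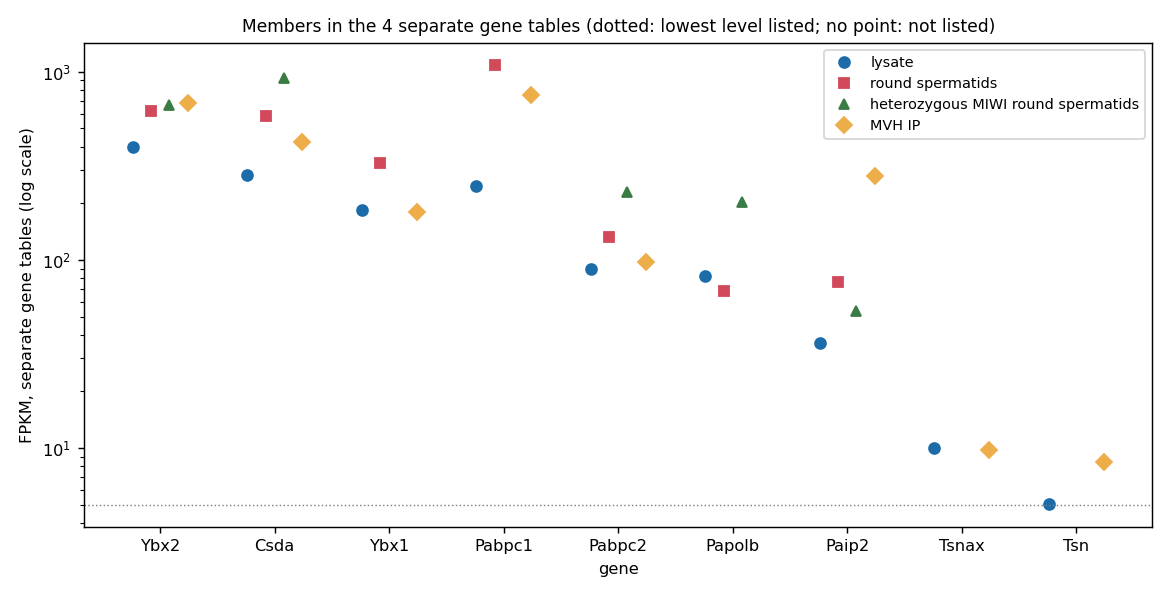
Level of 9 members (FPKM of the separate gene tables, log axis) in lysate, round spermatids, heterozygous MIWI round spermatids and MVH IP, with 1 deposited value per point and a dotted line at the lowest level listed. Pabpc1 is highest in round spermatids (1091 FPKM), Papolb in the heterozygous sample (202) and Paip2 in MVH IP (279).

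Other genes of the same machinery gave a mixed picture in the joint table. Their counts in MVH IP against lysate stand beside 47.3% of all genes higher, 7.53% lower and a median of 0.92, and those in pellet1 against lysate beside 16.8% higher, 9.41% lower and a median of 0.07. Of 11 measured poly(A)-binding proteins and partners, 3 were higher by 2-fold in MVH IP than in lysate and 0 lower, with a median log2 ratio of 0.22; relative to the median of all genes, 2 were higher and 3 lower. The 3 higher ones were Pabpc1l, the oocyte poly(A)-binding protein (26.1 against 1.70 FPKM), Paip2b, a paralog of Paip2 (158 against 31.6), and Pabpc5 (3.30 against 0.546). Paip2b was also higher in pellet1 (87.3 FPKM) and pellet2 (77.2). Pabpc6, a further intronless relative, stood at 93.7 FPKM in lysate and 81.7 in MVH IP, and the nuclear protein gene Pabpn1 at 92.5 and 92.2.

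Among the 24 poly(A) polymerases, cleavage factors and tail regulators, 7 were higher in MVH IP than in lysate and 1 lower, with a median of 0.57, and relative to the median of all genes 0 were higher and 3 lower. Nudt21, a cleavage factor subunit, had 257 against 70.3 FPKM, Cpeb4, a binder of cytoplasmic polyadenylation elements, 121 against 34.0, and Cpsf2 34.4 against 9.95. The polymerase gene Papolg was the lower one (4.44 against 10.1), and the canonical polymerase gene Papola had 46.7 against 25.3, within 2-fold. In pellet1 against lysate, 1 of the 24 was higher (Nudt21) and 2 were lower (Cpsf1 and Papolg), with a median of 0.01.

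Of 30 measured other RNA-binding regulators of germ cell mRNAs, 8 were higher in MVH IP than in lysate, led by Rbmxl2 (14.7 against 1.68 FPKM) and the stress granule gene G3bp1 (35.1 against 8.91). The gene Tarbp2, whose product binds double-stranded RNA, was the 1 lower (6.94 against 21.0 FPKM), and the median was 0.25. Relative to the median of all genes 1 was higher and 8 were lower. In pellet1 against lysate, 0 of the 30 were higher and 3 lower, among them Prkra (2.56 against 7.30 FPKM) and Dazap1 (22.3 against 47.7).

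The 18 spermatid mRNAs known for delayed translation had a median log2 ratio of -0.21 in MVH IP against lysate. The acrosomal gene Acrv1 (564 against 223 FPKM) was the 1 higher by 2-fold, and 0 were lower; relative to the median of all genes 0 were higher and 9 lower. The protamine and transition protein mRNAs lay within 2-fold. The log2 ratio of Prm1 was -0.75, that of Prm2 -0.57 and that of Prm3 0.96, while Tnp1 stood at -0.01 (15140.4 against 15259 FPKM) and Tnp2 at 0.10. In pellet1, Ldhc (1505 against 3496 FPKM) and Akap4 (459 against 948) were lower than in lysate, 2 of 18, with a median of -0.55. Round spermatids in the separate tables held 5 of the 18 at lower levels than lysate, Prm1, Prm2, Tnp1, Odf1 and Oaz3, beside 3.61% of all genes, and none at higher levels, beside 22.6%. Of the 15 listed in both, 14 were higher in MVH IP than in round spermatids, beside 75.4% of all genes; relative to the median of all genes (1.85) their median was -0.35, with 0 higher and 1 lower. The members and these lists share the same lysate, pellet and MVH IP values, so their ratios are set side by side and no overlap is drawn from them.

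Likeness was measured as the Euclidean distance between the 4 log2 ratios to lysate (supernatant, pellet1, pellet2 and MVH IP), over 6678 genes with a mean of at least 10 FPKM in the 5 conditions. The genes nearest to Ybx2 were Hrasls5 (0.10), Tcp10b (0.11) and 4930455F23Rik (0.18). Hrasls5 stood at 438 FPKM in lysate and 515 in supernatant, 184 in pellet1 and 303 in pellet2, and 286 in MVH IP. Nearest to Csda were 4930455F23Rik (0.13), the centrin gene Cetn1 (0.14) and the proteasome gene Psmc3 (0.15). Among the genes nearest to Ybx1 were Cyp17a1, a steroid synthesis gene of Leydig cells (0.22), and March11 (0.22).

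Among the members themselves, Ybx2 and Csda were closest, at a distance of 0.22, with Csda ranked 10 among the genes nearest to Ybx2 and Ybx2 ranked 15 for Csda. Pabpc2 and Papolb were 0.24 apart, at ranks 48 and 51. For Ybx1 the nearest member was Csda (0.53, rank 74), for Pabpc1 it was Papolb (0.34, rank 150), and for Tsnax it was Pabpc2 (0.37, rank 46). Paip2 and Tsn were nearest to each other but far apart (0.60, ranks 1022 and 720), and Pabpc4 was 1.21 from its nearest member, Paip2. The genes nearest to Pabpc1 were Brap, Tsnaxip1 and Znfx1 (0.08 to 0.10), to Pabpc2 Tmem146, Rpl41 and Gm7444 (0.08 to 0.09), and to Papolb Apba1, Stt3a and Sec31a (0.05 to 0.09). Ppp6r3, Ovgp1 and Adam1a were nearest to Paip2 (0.09 to 0.10), Spdya, Glt8d1 and BB014433 to Tsn (0.08 to 0.12), and Eno3, Fam98a and Ascc2 to Tsnax (0.20 to 0.25). For the weakly measured Pabpc4 they were Wars, 0610010O12Rik and Nr2c1 (0.22 to 0.28). These distances describe 5 deposited values per gene, which share the same libraries.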

How the data were processed

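RNA levels were read from a joint table of 5 conditions and from separate gene tables of lysate, MVH IP, round spermatids and heterozygous MIWI round spermatids, with a further MVH IP table per RefSeq transcript. All levels are FPKM, as deposited and per the file headers. TopHat and Cuffdiff were run on the mm9 build, per the submitters' processing notes. Their versions, the read counts, the scaling and the use of strand are not given in these sources, so depth is unknown. The p-values and q-values are those of the authors' deposited table, per the file headers, and were counted at q below 0.05. The joint table holds 27024 features, 21905 of them with a gene symbol; 26 features had a value that differed between pairs of conditions, and the highest was then used. The authors scaled each separate table on its own, and these tables list genes from 5 FPKM up. Where a symbol had several rows in a separate or transcript table, the highest value was used. A small RNA column, 1 in number, was not used.

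Samples were grouped by their labels. Log2 ratios of (FPKM + 1) were computed over all symbol-bearing genes whose mean reached 1 FPKM, called at 2-fold, and centred on the median of all genes where stated. Across the separate tables, genes listed in both were compared. With 1 value per group no test was run. Alternatives changed the pseudocount (0.1 or 5), the fold (1.5), the filter (none or 5 FPKM), the centring and the table. The calculation of ratios and calls was tested on simulated data. Named genes were all 10 members, up to 4 genes per companion list and comparison past 2-fold (largest first), and the 3 genes nearest to each member, of which some are not reported here; Pabpc6, Pabpn1, Papola, Prm1, Prm2, Prm3, Tnp1 and Tnp2 were named after their values were seen. The members and lists were chosen with earlier results of these data known. Coordinates of the files are counted from 1. Sequences came from GENCODE M21 and the RefSeq promoter table (GRCm38.p6), a build other than mm9, and no coordinates were converted. The coding sequences of the 3 Y-box genes were aligned with MAFFT 7.526 to choose the printed stretch. Percent identities came from global pairwise alignments in Biopython and were counted over positions without a gap. Python 3.11.15, pandas 2.3.3, numpy 2.4.6, Biopython 1.88 and matplotlib 3.10.9 were used.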

Additional observations from a re-analysis of the deposited data

How the results depend on the processing

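No paired analysis was possible because each group has 1 deposited value and the results come from no test; for the same reason no library could be left out. Supernatant against lysate gave 0 members called under all alternatives run. MVH IP against lysate (1 member called) gave 0 at a pseudocount of 5 or a minimum of 5 FPKM, 6 at 1.5-fold (1 higher, 5 lower), 7 when centred (all lower), 2 in the separate tables (both higher), 6 in these when centred (all lower) and 4 with the transcript values (all lower). Pellet1 against lysate (4) gave 7 at 1.5-fold and 5 when centred. Pellet2 against lysate (1) gave 6 at 1.5-fold and 1 when centred. MVH IP against pellet2 (1) gave 2 at a pseudocount of 0.1, 0 at 5 or at a minimum of 5 FPKM, 3 at 1.5-fold and 1 when centred, lower in place of higher. MVH IP against round spermatids (1 higher) gave 2 at 1.5-fold, 5 when centred (lower), 1 with the joint MVH IP values (lower) and 5 with these centred (lower). Round spermatids against lysate (3 higher) gave 2 at a pseudocount of 5, 5 at 1.5-fold, 1 when centred, 2 with the joint lysate (1 higher, 1 lower) and 1 with that centred. Heterozygous MIWI against other round spermatids (1) gave 3 at 1.5-fold. The direction of 22 of 437 recomputed member ratios turned, all where the centring or the table was changed. A change of fold or filter leaves a ratio as it is, and a change of pseudocount cannot turn its direction. With a 2-fold call before or after, it turned for Pabpc1 in MVH IP against lysate of the separate tables (1.59), for Tsn there when centred (-1.39), for Ybx2 in MVH IP against round spermatids when centred (-1.70, or -1.33 with the joint MVH IP values), for Paip2 in the latter (-0.55), and for Paip2 (-0.28) and Csda (-0.29) in round spermatids against the joint lysate. Without a call it turned for Ybx2 (0.79), Csda (0.58) and Pabpc2 (0.12) in MVH IP against lysate of the separate tables, for Paip2 (-0.42) and Tsn (-0.50) there in the joint table when centred, for Papolb, Paip2, Ybx1 and Csda in MVH IP against pellet2 when centred (-0.73 to -0.12), for Pabpc2 (0.00) and Ybx2 (-0.01) in the joint MVH IP against round spermatids, for Pabpc2 (-0.86, or -0.16 when centred) and Ybx2 (-0.65) in round spermatids against the joint lysate, and for Ybx2 in the heterozygous sample when centred (-0.33). The alternatives with the transcript values and those that join a change of table with centring were chosen after seeing the data. The cause of these changes was not tested. Of the other ratios, 354 kept their direction and call, 50 passed the threshold anew and 11 lost it. These counts include the alternatives that cannot turn a direction. Without read counts, the precision of low members (Pabpc4, Tsn and Tsnax) cannot be given.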
